A study of Homo sapiens with 6 samples.

Results

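The 241 regions described here were highly methylated both in DNMT3B knockout cells and in control cells. They were chosen from a deposited table of methylation levels by the levels themselves: at least 5 measured sites and a mean methylation of at least 80% in each genotype. The rule took 241 of the 34885 regions with at least 5 sites, or 0.691%, and 0.686% of the 35130 regions in the whole table. Because the levels made the choice, the levels, the differences between genotypes and the authors' p- and q-values of these regions are given as a description, without a test.

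Methylation was measured in M07e, a human acute megakaryoblastic leukemia line kept in medium with GM-CSF, at 10 ng/mL, and 20% serum. Reduced representation bisulfite sequencing (RRBS) reads DNA cut by MspI, an enzyme that cuts at CCGG whether or not the inner cytosine is methylated, so that mostly CpG-rich sequence is sampled. There were 3 libraries from DNMT3B knockout cells, made with CRISPR, and 3 libraries from control cells labelled WT. The labels name neither a clone nor separate cultures for the libraries, and both groups shared the line, the medium and the library kit. The table gave 1 mean per genotype and region, so no value below has a spread between libraries, and the read depth behind it is unknown. The control column carries the name WT, whereas the other column carries a name that no label uses. No other genotype was studied, so that column was read as the knockout, and every direction below rests on this reading. A table of methylation levels cannot check the cell type by its expressed markers, nor the loss of DNMT3B. DNMT3B itself had 3 regions, with levels of 0.463%, 44.2% and 28.8% in knockout cells against 7.73%, 11.1% and 0% in control cells, and none of them was among the 241.

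In mammalian DNA, methyl groups sit mainly on the cytosine of CpG pairs. DNMT3A and DNMT3B add them to unmethylated DNA, whereas DNMT1, guided by UHRF1, copies them onto the new strand after replication, so that methylation already present can be passed on at cell division. CpG islands at the starts of active genes are usually unmethylated, and the bodies of transcribed genes usually carry methylation, which DNMT3B is known to help place.

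Reference sequence was at hand only for promoter windows. Few of these regions touch one, so the sequences below are examples and do not stand for the 241. The reference sequences of 35116 promoter windows, each from 250 bases before to 50 bases after a gene's start, came from RefSeq (GRCh38.p14). Of the 241 regions, 11 overlapped 13 of these windows, 5 of them at protein-coding genes. Below are 3 of those protein-coding windows and the windows of the long noncoding RNA genes LINC01191, which holds a pair of regions, and LINC01799, which is poor in CpG; these last 2 were chosen after their values were seen. Each is written 5′ to 3′ on the strand of the gene, and the capitals mark the bases of the highly methylated regions.
ZC2HC1C, chr14:75069391-75069690, plus strand: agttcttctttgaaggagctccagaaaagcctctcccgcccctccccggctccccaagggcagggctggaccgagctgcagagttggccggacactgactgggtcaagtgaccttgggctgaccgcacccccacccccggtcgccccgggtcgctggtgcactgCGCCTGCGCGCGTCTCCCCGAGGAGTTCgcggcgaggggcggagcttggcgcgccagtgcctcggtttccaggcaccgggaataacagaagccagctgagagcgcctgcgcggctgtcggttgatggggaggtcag
GSDME, chr7:24757415-24757714, minus strand: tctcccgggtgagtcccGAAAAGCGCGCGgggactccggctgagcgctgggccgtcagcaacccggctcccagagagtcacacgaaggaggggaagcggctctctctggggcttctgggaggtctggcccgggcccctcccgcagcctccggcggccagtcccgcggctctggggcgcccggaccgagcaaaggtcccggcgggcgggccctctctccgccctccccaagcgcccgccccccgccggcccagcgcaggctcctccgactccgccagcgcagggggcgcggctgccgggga
LRRC9, chr14:59919894-59920193, plus strand: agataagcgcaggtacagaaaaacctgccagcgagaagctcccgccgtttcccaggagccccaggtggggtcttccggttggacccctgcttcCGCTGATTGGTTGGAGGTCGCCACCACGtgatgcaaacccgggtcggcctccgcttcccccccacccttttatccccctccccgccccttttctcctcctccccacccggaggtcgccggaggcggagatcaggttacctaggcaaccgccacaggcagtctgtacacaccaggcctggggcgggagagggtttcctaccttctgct
LINC01191, chr2:113979635-113979934, plus strand: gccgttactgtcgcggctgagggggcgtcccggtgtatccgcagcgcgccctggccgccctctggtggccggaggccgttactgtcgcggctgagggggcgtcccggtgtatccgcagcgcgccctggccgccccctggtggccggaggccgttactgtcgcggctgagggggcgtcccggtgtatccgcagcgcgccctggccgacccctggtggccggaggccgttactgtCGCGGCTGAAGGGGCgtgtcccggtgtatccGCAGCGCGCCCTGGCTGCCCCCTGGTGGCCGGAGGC
LINC01799, chr2:66904186-66904485, plus strand: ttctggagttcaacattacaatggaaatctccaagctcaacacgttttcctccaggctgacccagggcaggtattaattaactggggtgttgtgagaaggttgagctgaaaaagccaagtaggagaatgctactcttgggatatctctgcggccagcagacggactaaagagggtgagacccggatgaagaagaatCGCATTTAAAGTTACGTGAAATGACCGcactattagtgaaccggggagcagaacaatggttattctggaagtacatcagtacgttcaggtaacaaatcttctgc

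The region in the first window lies between ZC2HC1C and ACYP1, which run in opposite directions, 59 bases from the start of ZC2HC1C and 65 bases from that of ACYP1. It spans chr14:75069555-75069582 on hg38 and had 11 sites, with a mean methylation of 82.6% in knockout cells and 84.2% in control cells. ACYP1 encodes an acylphosphatase. A site is a CpG cytosine on 1 strand: in the reference this region holds 6 CpG pairs and 11 such cytosines between its first and its last base, which is the deposited number of sites.

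GSDME encodes a gasdermin, a protein that forms pores in the cell membrane when cleaved by caspases. Its region, chr7:24757686-24757697, lies 222 bases upstream of the start and had 7 sites at 98.7% in knockout cells and 96.6% in control cells. The LRRC9 region, chr14:59919987-59920014, lies 130 bases upstream of that gene's start and had 6 sites at 96.5% in knockout cells and 97.8% in control cells. Both regions were close to full methylation in either genotype.

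The LINC01191 window is made of near copies of one unit: shifted by 74 bases, it matches itself at 188 of 226 bases, or 83.2%. Its regions, chr2:113979868-113979882 with 5 sites and chr2:113979899-113979947 with 7 sites, both had 99.0% in knockout cells, against 98.0% and 98.5% in control cells. Neither run of capitals has a second exact copy in the window or in any other window of the table. The second run shows 36 of its region's 49 bases, and the other 13, in the window of LINC02992, were found in 2 windows. Matches after bisulfite conversion were not sought, and how reads from the other copies were placed was not tested. LINC01799 stands at the other end of the range of CpG content, with 9 CpG pairs in its window against 39 in that of LINC01191. Its region, chr2:66904382-66904408, had 6 sites at 98.2% in knockout cells and 97.0% in control cells.

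All 13 windows hold the MspI site CCGG, which reads the same on both strands, as do 63.1% of the 35116 windows. The median number of CpG pairs was 24 in the 13 windows and 14 in all windows. RRBS needs MspI sites close by, and the rule needs at least 5 measured sites, so the method favours both orders in advance. Windows that hold other measured regions were not compared, so nothing is read from these values. The fifth protein-coding gene is NKX2-8, a homeobox factor gene, whose region reaches into the window with a single cytosine (chr14:36582520-36582572, 5 sites, 97.5% in knockout cells and 94.3% in control cells).

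The median level of the 241 regions was 95.5% in knockout cells (quartiles 89.9% and 97.8%, range 80.3% to 100%) and 92.7% in control cells (quartiles 84.9% and 96.6%, range 80.1% to 99.7%). Both means were at least 90% in 116 regions and at least 95% in 58. In 60 regions, 1 mean was at least 95% and the other under 90%. A single region, in the gene of the vasoactive intestinal peptide receptor VIPR2, had 100% in knockout cells, with 90.5% in control cells, and none had 100% in control cells.

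The difference, knockout minus control, had a median of 2.04 percentage points (quartiles -2.01 and 6.96, range -18.1 to 18.7), and its standard deviation over the 241 regions was 7.71 points. The rule limits it to 20 points in either direction. Methylation was higher in knockout cells in 150 regions, or 62.2%, and lower in 91. Among the other regions with at least 5 sites, 68.6% were higher in knockout cells. In those regions the knockout mean lay within 3 points below 33.3% in 8000, and the control mean in 1681. The rule leaves no such value among the 241, so these shares are not like for like and nothing is read from their order. The genotypes lay within 1 point of each other in 19 regions and within 5 points in 131. They differed by more than 10 points in 61 regions, with 42 higher and 19 lower in knockout cells.

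**Figure D1:**
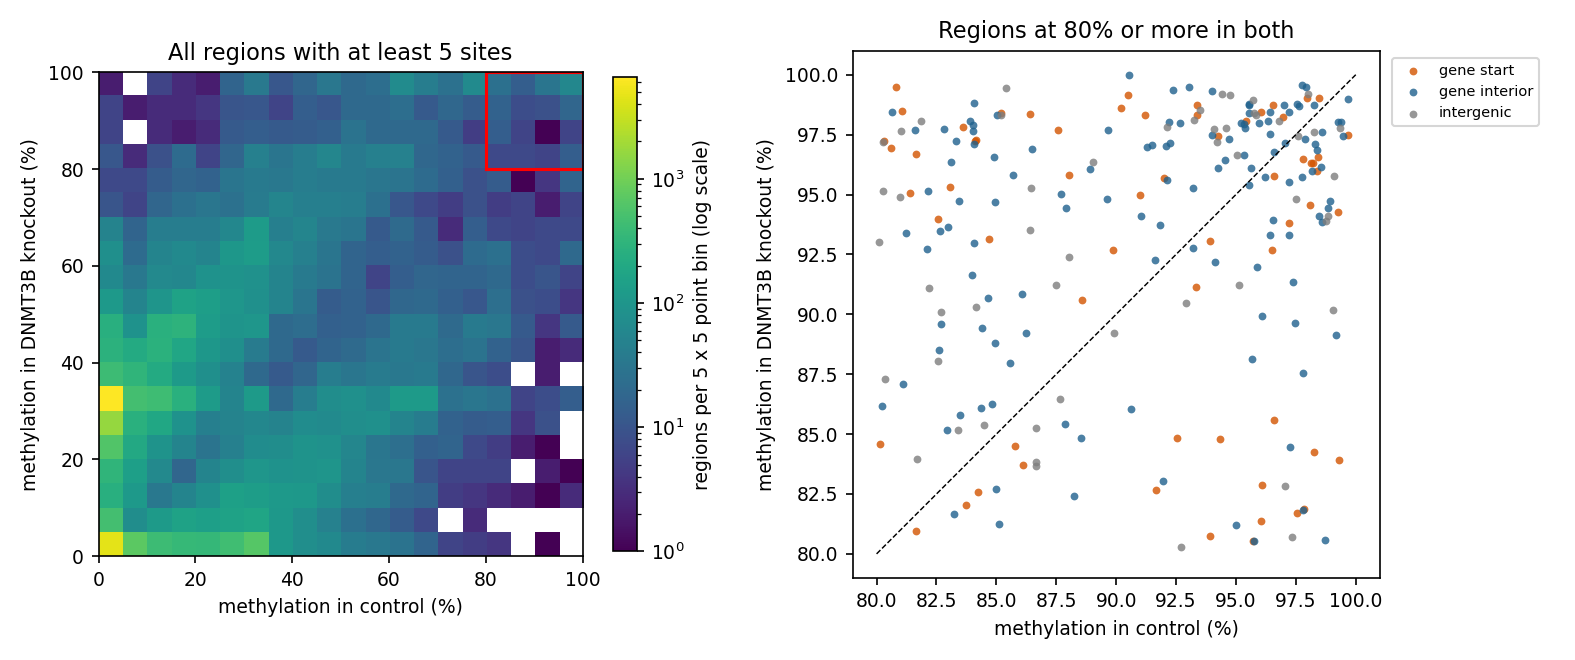
Mean methylation in control cells (x axis, %) against DNMT3B knockout cells (y axis, %). Left, all 34885 regions with at least 5 sites, coloured by the number of regions per bin on a log scale, with the red box around the 241 regions at 80% or more in both. Right, these 241 regions one by one, coloured by position, with the dashed line at equal levels; 150 lie above the line.

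At protein-coding genes, the largest falls within these bounds were in gene interiors and at gene starts. At NFIC, a nuclear factor I transcription factor gene, the region chr19:3369818-3369852 had 80.6% in knockout cells and 98.7% in control cells. VPS26C, a subunit of an endosomal retriever complex, had 81.8% in knockout cells and 97.8% in control cells. RNF39, a RING finger gene of the major histocompatibility region, had 81.9% in knockout cells and 97.8% in control cells. These 3 were lower in knockout cells by 18.1, 16.0 and 16.0 points. An intergenic region 3724 bases from the noncoding gene LINC02048 had 80.7% in knockout cells and 97.3% in control cells, a larger fall than at VPS26C.

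Among protein-coding genes, the widest gap in the other direction was at LY86, which encodes a partner of the toll-like receptor homologue RP105, with 98.4% in knockout cells and 80.6% in control cells. IL17C, an epithelial cytokine gene, had 98.5% in knockout cells and 81.1% in control cells. DDOST, a subunit of the oligosaccharyltransferase that glycosylates proteins, had 96.9% in knockout cells and 80.6% in control cells. A region 3732 bases from CXCR5, a chemokine receptor gene of B cells, had 98.1% in knockout cells and 81.9% in control cells, and OPLAH, which encodes 5-oxoprolinase, had 97.7% in knockout cells and 81.6% in control cells. In all 5, the knockout mean was between 96.9% and 98.5% and the control mean near the lower bound of the rule. The largest gap of all, 18.7 points, was at the noncoding gene LINC01044, with 99.5% in knockout cells and 80.8% in control cells.

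Around the threshold the table runs on without a gap. The 3 regions just inside had their lower mean in control cells: one 24523 bases from MRPL23 had 93.0% in knockout cells and 80.1% in control cells, SEMA4F had 84.6% in knockout cells and 80.1% in control cells, and ARVCF had 86.2% in knockout cells and 80.2% in control cells. The 3 just outside were at ADRB1, with 96.6% in knockout cells and 79.96% in control cells, near ZNF354C, with 96.1% in knockout cells and 79.96% in control cells, and at TPD52L2, with 79.97% in knockout cells and 82.5% in control cells. In 90 of the 241 regions the lower mean was under 85%, and another 141 regions had their lower mean between 75% and 80%.

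High methylation in a single genotype was more frequent in the table than high methylation in both. Of 688 regions at 80% or more in control cells, 241, or 35.0%, were also at 80% or more in knockout cells, and 180 of these were at 90% or more there. The knockout mean was under 50% in 215 of the 688 and under 20% in 23, with a median of 64.1%. Read from the other side, 1399 regions were at 80% or more in knockout cells, and 241 of them, or 17.2%, were so in control cells. The control mean of those 1399 was under 50% in 520 and under 20% in 81, with a median of 58.6%. These lower levels were not spread evenly. The knockout mean of the 688 lay from 30% to 35% in 55 and from 35% to 40% in 10. It lay from 60% to 65% in 61 and from 65% to 70% in 27. For the control mean of the 1399, these counts were 106, 59, 160 and 93. What part the number of libraries read at a region has in these counts was not tested. The shares are therefore not read as loss or gain.

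**Figure D2:**
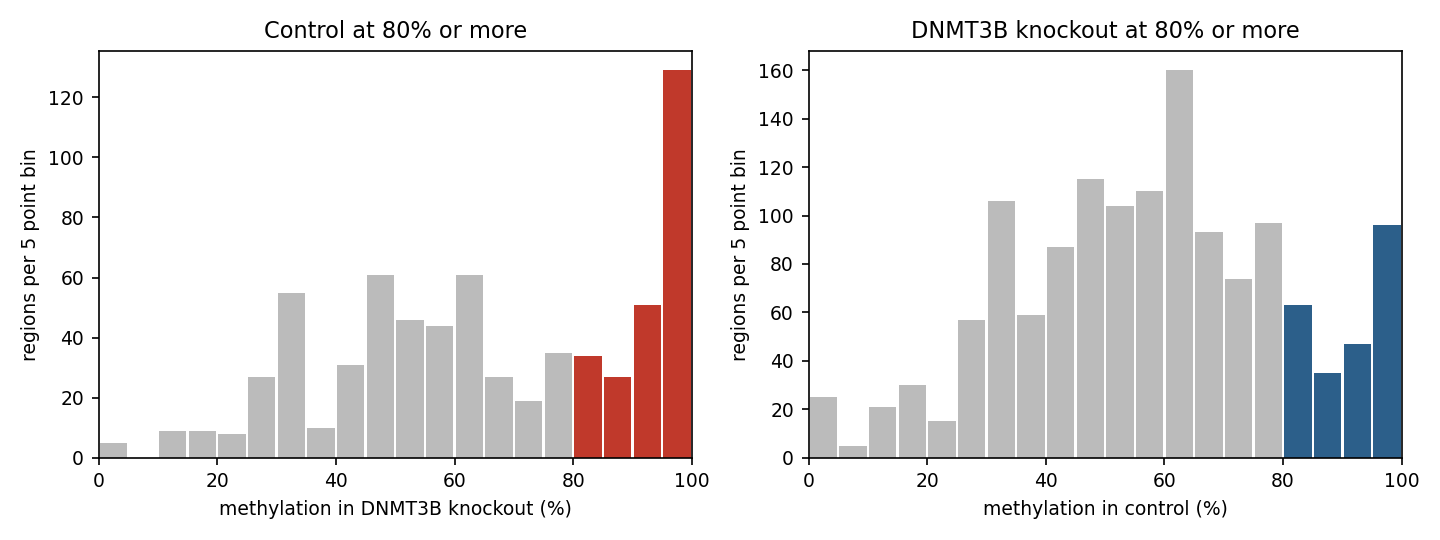
Left, knockout mean (x axis, %) of the 688 regions at 80% or more in control cells; right, control mean (x axis, %) of the 1399 regions at 80% or more in knockout cells. Bars count regions per 5 point bin, and the coloured bars hold the 241 regions at 80% or more in both, which in either panel are most numerous in the bin from 95 to 100.

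By the q-values in the authors' deposited table, 7 of the 241 regions, or 2.90%, had a q under 0.01, against 3183 of all 35130 regions, or 9.06%. All 7 were higher in knockout cells. In the whole table, 5.52% of regions passed q under 0.01 with a higher and 3.54% with a lower knockout mean, and 6.74% passed it with a difference of at least 25 points, which the rule does not allow. The rule used this contrast, so nothing is read from these shares. In the authors' deposited table, 105 of the 241 regions had a q of exactly 1.

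Of the 7 regions, one lay 4681 bases from the noncoding gene LINC01121 (chr2:45169645-45169660), with 8 sites at 97.2% in knockout cells and 80.3% in control cells and a q of 9.04e-05 in the authors' deposited table. DPYSL2, which encodes an axon guidance mediator, had 95.1% in knockout cells and 81.4% in control cells, and ASPHD2 had 98.4% in knockout cells and 86.4% in control cells. LBX1, a homeobox gene of muscle precursors and spinal cord neurons, had 98.3% in knockout cells and 91.2% in control cells, over 8 sites in 11 bases. The other 3 were the OPLAH region given above, a region at HCG4 and HLA-V with 98.6% in knockout cells and 90.2% in control cells, and an intergenic region of chromosome 16 with 98.1% in knockout cells and 93.2% in control cells.

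The 241 regions were short. The median length was 28 bases (quartiles 16 and 44) against 58 in the other regions with at least 5 sites, and together they covered 8.74 kilobases. They held few sites: 145 had 5, 36 had 6, 26 had 7, 19 had 8, 7 had 9, 3 had 10 and 5 had more than 10. The median density was 21.4 sites per 100 bases, against 12.5 in the other regions, 17.9 in the 447 regions that were at 80% or more in control cells only, 20 in the 1158 that were so in knockout cells only, and 18.4 in the 8011 at 20% or less in both. Sites on the 2 strands of 1 CpG are counted apart, so 5 sites can be 3 CpG pairs.

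By position, the regions lay inside genes more often than at gene starts. A region was put at a gene start when it was within 1000 bases of a start, or of either end of a gene for which no strand was at hand. Of the 241 regions, 63 (26.1%) were at a gene start, 125 (51.9%) elsewhere in a gene and 53 (22.0%) intergenic. Among the other regions these shares were 42.5%, 40.3% and 17.2%, and among the 8011 regions at 20% or less in both they were 73.0%, 17.7% and 9.35%. At gene starts, the regions high in 1 genotype lay between the 241 and the other regions, with 34.7% for those high in knockout cells only and 29.3% for those high in control cells only. The median distance to the nearest start was 5351 bases for the 241 regions, 1832 for the other regions and 301 for those low in both.

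A stricter definition gave a lower share at gene starts in each set. With a start whose strand is known, 42 of the 241 regions (17.4%) were at one, against 29.7% of the other regions. Promoter windows were overlapped by 4.56% of the 241 regions, 10.9% of the other regions and 24.3% of those low in both. In all, 176 of the 241 regions overlapped a gene and 144 a protein-coding gene, 57 lay in a gene more than 10000 bases from any start, and 43 lay more than 50000 bases from any protein-coding gene. No region overlapped a microRNA hairpin. The level varied little with position: the median was 95.7% in knockout cells and 93.3% in control cells at gene starts, 95.7% in knockout cells and 93.1% in control cells in gene interiors, and 94.9% in knockout cells and 92.1% in control cells between genes.

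**Figure D3:**
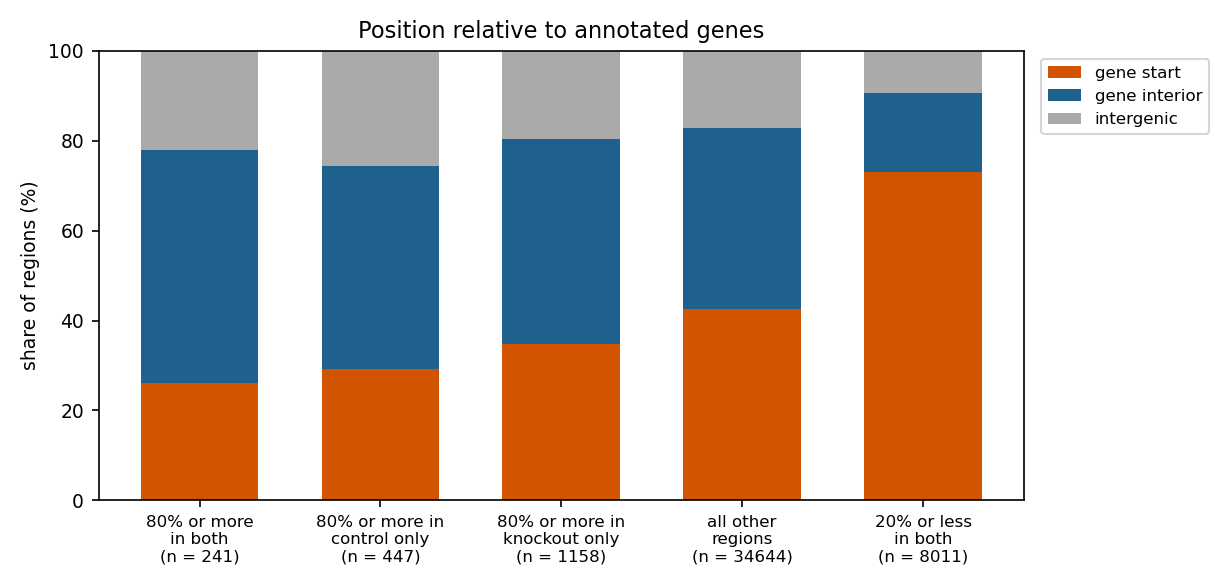
Share of regions (y axis, %) at a gene start, elsewhere in a gene or between genes, for the 241 regions and 4 sets from the same table; the set of all other regions includes the 3 sets at 80% or more in one genotype or 20% or less in both. Gene starts make up 26.1% of the 241 regions and 73.0% of the regions at 20% or less in both.

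The regions with the most sites were an exception, since all 8 with at least 10 sites were at a gene start, against 47.7% of the other regions of that size. Of those with 5 sites, 32 of 145 (22.1%) were at a start, against 43.6% of the other regions with 5 sites. Of the 8, both UTS2R and OSR1 rest on an end of a gene without a known strand, and CFAP161 and CELSR1 were counted only because a pseudogene ends close by. The remaining 4 lay at starts with a known strand.

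UTS2R, the receptor gene of the vasoactive peptide urotensin, had the region with the most sites, 20 within 49 bases (chr17:82371752-82371800). Its level was 81.7% in knockout cells and 97.5% in control cells. CFAP161, a cilia protein gene, had 15 sites at chr15:81118627-81118677, with 83.9% in knockout cells and 99.3% in control cells. Both were near full methylation in control cells and close to the lower bound in knockout cells, and in the authors' deposited table neither had a q under 0.05 (1 and 0.862).

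OSR1, an odd-skipped zinc finger gene of kidney and heart development, had 11 sites at chr2:19358536-19358591, with 92.7% in knockout cells and 89.9% in control cells. NTSR2, a neurotensin receptor gene, had 10 sites 62 bases from its start, with 93.2% in knockout cells and 84.7% in control cells. SEMA4F, a semaphorin gene, had 10 sites 497 bases from its start, and CELSR1, a cadherin gene of planar cell polarity, had 10 sites with 80.7% in knockout cells and 93.9% in control cells. The region between the noncoding genes LINC00511 and LOC105371887 had 11 sites, with 97.3% in knockout cells and 80.3% in control cells. The direction thus differed from gene to gene: of these regions with at least 10 sites, knockout levels were higher in 50%.

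Of the protein-coding genes next in number of sites, RNF39, given above for its fall of 16.0 points, had 9. FAM193B had 9 sites in its interior at 95.7% in knockout cells and 97.8% in control cells. CFAP73, another cilia gene, had 9 at 97.8% in knockout cells and 95.4% in control cells. OGFOD3 had 8, at 96.8% in knockout cells and 96.6% in control cells. FAM193B, CFAP73 and OGFOD3 differed by less than 3 points between genotypes, unlike RNF39.

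**Figure D4:**
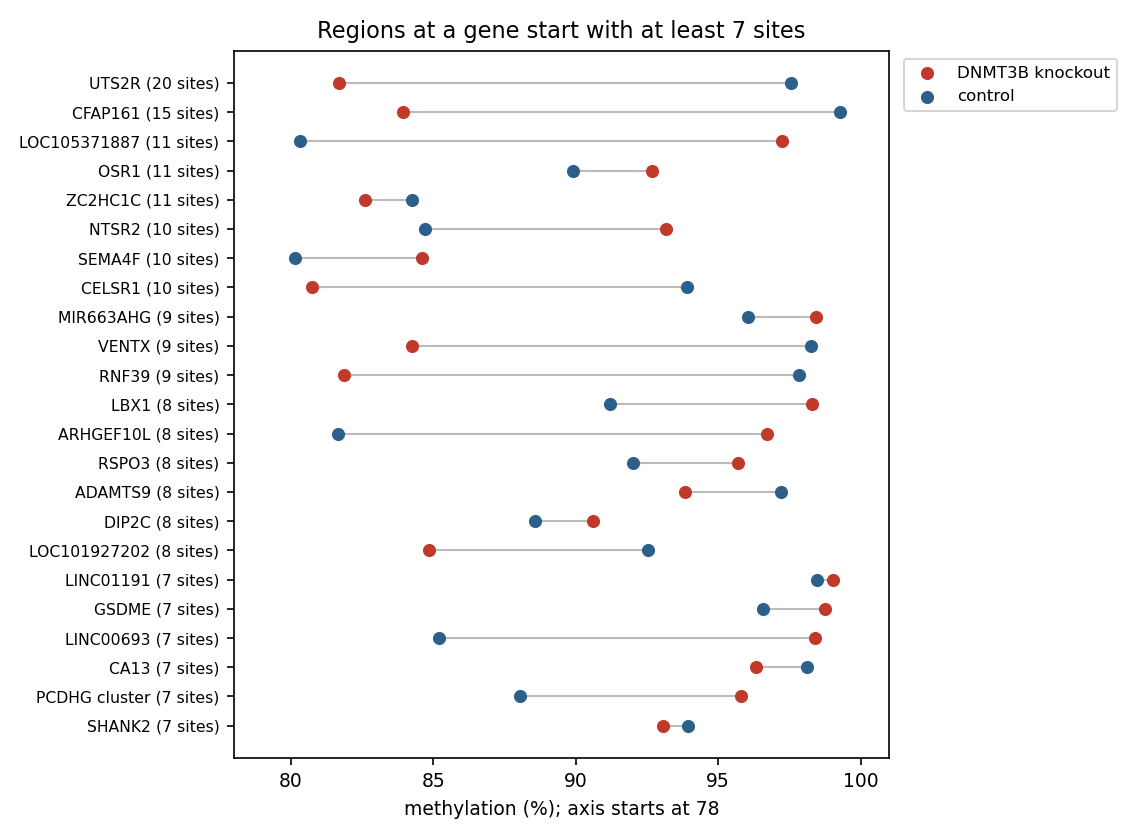
Mean methylation (x axis, %, from 78) in DNMT3B knockout cells (red) and control cells (blue) of the 23 regions at a gene start with at least 7 sites, named by the gene they overlap or lie nearest to. The knockout level is the lower at UTS2R, CFAP161 and CELSR1 and the higher at NTSR2 and LBX1.

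Several genes with a highly methylated interior had an unmethylated start. Interior is taken here for each gene by its own start. A region there can thus count among the 63 at a gene start through another gene, as at NOC2L. Of 129 protein-coding genes with one of the 241 regions in their interior, 83 also had a measured region at their start, and in 35 of these (42.2%) a start region was at 20% or less in both genotypes. Genes that overlap can share a region, so these counts of genes are not counts of measurements. The 129 include 18 gamma protocadherin genes that share a single region, of which PCDHGB6 and PCDHGB7 are among the 35. Among all protein-coding genes with a start region, 5307 of 9501 (55.9%) had such a low start. Over the genes with both, the median level of the interior regions was 96.0% in knockout cells and 95.6% in control cells, and that of the low start regions was 2.33% in knockout cells and 1.96% in control cells.

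REXO1, an exonuclease gene, had an interior region at 99.0% in knockout cells and 99.7% in control cells, 16059 bases from its start. Its 2 start regions had a median of 0.919% in knockout cells and 1.22% in control cells. ZNF865, a zinc finger gene, had 99.5% in knockout cells and 97.9% in control cells in its interior, with start regions at a median of 1.24% in knockout cells and 4.54% in control cells. Both genes thus spanned nearly the whole scale of methylation in either genotype.

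PRR12 had 2 abutting interior regions at 94.4% and 92.8% in knockout cells and 98.9% and 93.2% in control cells, with a start region at 2.59% in knockout cells and 0.674% in control cells. NOC2L, a ribosome assembly factor that also inhibits histone acetylation, had 82.9% in knockout cells and 96.1% in control cells, with start regions at a median of 1.78% in knockout cells and 4.86% in control cells. TBX15, a T-box gene of skeletal development, had 97.3% in knockout cells and 94.7% in control cells, with 2 of its 3 start regions low, at a median of 9.45% in knockout cells and 2.01% in control cells. ATXN7L1 had 93.9% in knockout cells and 96.5% in control cells, but only 1 of its 4 start regions was low, at 0% in knockout cells and 1.61% in control cells. Of these genes, NOC2L was the one with the largest gap between genotypes in its interior.

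GRTP1 showed both states, and levels between them, along a single gene. The 2 interior regions high in both genotypes had 96.6% and 96.3% in knockout cells and 95.4% and 83.1% in control cells. Further along, interior regions had 19.2%, 98.0% and 24.0% in knockout cells and 34.2%, 57.7% and 39.2% in control cells. The 3 regions at the far end had 1.07%, 3.35% and 2.04% in knockout cells and 2.56%, 6.73% and 12.9% in control cells. A region 1062 bases past that end had 30.9% in knockout cells and 0% in control cells. No strand was at hand for GRTP1, so that end was taken as a possible start.

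Each region was assigned to the genes it overlapped or, where it overlapped none, to the nearest gene within 50000 bases. By this assignment, 268 of 17530 genes with a measured region (1.53%), and 183 of 11393 protein-coding genes (1.61%), had at least 1 of the 241 regions. In 12 genes there were 2 or more. ASPHD2 had 3 of its 4 regions among them, 1 near its start and 2 further in, which also lie in HPS4, a gene of Hermansky-Pudlak syndrome. Of these 3, the start region had 98.4% in knockout cells and 86.4% in control cells, and the others 96.1% and 91.4% in knockout cells against 88.9% and 97.4% in control cells. The fourth region of ASPHD2, between them, had 17 sites at 30.3% in knockout cells and 0% in control cells.

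In the genes with more measured regions, high and intermediate levels lay side by side. PXDN, which encodes a peroxidase that crosslinks collagen IV, had 2 abutting regions at 98.0% and 96.5% in knockout cells and 99.3% and 94.5% in control cells, and further along the gene a region (chr2:1648224-1648284) at 12.5% in knockout cells and 72.3% in control cells (q 0.00331 in the authors' deposited table). VIPR2 had 2 of its 11 regions among the 241, the second of which had 98.0% in knockout cells and 95.2% in control cells. VSTM2L had 2 abutting regions at 96.1% and 98.8% in knockout cells and 95.6% and 97.5% in control cells. EPB41L1, a membrane skeleton gene, had 99.2% and 95.8% in knockout cells and 90.5% and 85.7% in control cells, where the first of the pair was near a start and another start region had 1.94% in knockout cells and 2.31% in control cells. OPLAH had a second region, at 92.7% in knockout cells and 96.5% in control cells, while its other 6 regions lay between 1.41% and 50.2% in knockout cells and between 3.13% and 41.8% in control cells.

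In the gene lists chosen for the tissue and for methylation biology, counts were too small to set apart from the 1.53% of all measured genes that held one of the 241 regions. None was found in the measured genes of the germline (15 genes), imprinted (27), megakaryocyte (11), erythroid (10), lymphoid (11), myeloid (11), stem and progenitor (13), DNA methylation (18), heterochromatin (10) or housekeeping (6) lists. A measured gene here has a region with at least 5 sites. The regions of these lists with the highest lower mean, named after their values were seen, included 74.0% in knockout cells and 97.5% in control cells at FLI1, a megakaryocyte transcription factor, 85.0% in knockout cells and 64.2% in control cells at BCL11B, a T cell factor, and 65.7% in knockout cells and 68.9% in control cells at TDRD5, a germline piRNA pathway gene. The 90 regions of imprinted genes came closest at PLAGL1, with 46.5% in knockout cells and 52.9% in control cells.

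In the tumour suppressor list, 1 of 25 measured genes, the oestrogen receptor gene ESR1, had a region (chr6:151808606-151808614), 493 bases from its start, with 85.6% in knockout cells and 96.6% in control cells. In the list around the CBFA2T3-GLIS2 fusion named in the study's title, 1 of 14 had one. That gene was CBFA2T3, a transcriptional corepressor, whose region chr16:88929313-88929354 had 7 sites at 87.6% in knockout cells and 97.8% in control cells. It was 1 of 24 measured regions of CBFA2T3, and another, at 98.8% in knockout cells and 77.9% in control cells, missed the threshold in control cells. GLIS2 had 5 measured regions and none among the 241.

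Among gene families, 4 of 315 measured zinc finger genes of the ZNF series had a region (1.27%): ZNF317, ZNF778, ZNF841 and ZNF865. ZNF317 had 97.3% in knockout cells and 97.9% in control cells, ZNF778 had 98.1% in knockout cells and 96.3% in control cells, and ZNF841 had 95.4% in knockout cells and 95.5% in control cells. These differed by less than 2 points between genotypes. The HOX genes had none in 115 regions, the collagen genes none in 190 and the calcium channel genes none in 96, where 0.691% of all regions with at least 5 sites were among the 241, and no region fell to the 13 measured olfactory receptor genes.

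Of 43 measured clustered protocadherin genes, 18 shared a single region (chr5:141427617-141427665), 1 of the 42 regions of the clusters, with 95.8% in knockout cells and 88.0% in control cells. The gamma protocadherin genes overlap, because each joins its own first exon to shared last exons, so this is 1 measurement and not 18. KRT85, a hair keratin gene, had 95.8% in knockout cells and 96.6% in control cells. A region 17904 bases from MUC2, the intestinal gel mucin, had 91.2% in knockout cells and 87.5% in control cells. The metalloproteases ADAMTS9 and ADAMTS13, of which the last cleaves von Willebrand factor, had 93.8% and 97.0% in knockout cells and 97.2% and 92.1% in control cells.

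Most of the regions had no other measured region close by, so the table does not show how far their methylation extends. Where one was measured, it was seldom high in both genotypes, though more often than beside the other regions. Within 500 bases, 68 of the 241 (28.2%) had another region with at least 5 sites, against 21.8% of the other regions. The nearest such neighbour was high in both genotypes for 10 (14.7%), low in both for 1 and neither for 57, at a median distance of 20.5 bases. Of the other regions with a neighbour, 58 of 7564 (0.767%) had one that was high in both. The 10 form 5 pairs, at PXDN, LINC01191, PRR12, VSTM2L and in the shared part of ASPHD2 and HPS4, so that merging regions within 1000 bases leaves 236.

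The neighbours that were neither high nor low in both had median levels of 42.6% in knockout cells and 32.9% in control cells, and 35 of the 57 were higher in knockout cells. In 22 of the 57, at least 1 mean lay within 3 points below 33.3% or 66.7%, and in 12 at least 1 mean was 0%. Such values are frequent in the table: the knockout mean lay within 3 points below 33.3% in 8000 of the regions with at least 5 sites (22.9%) and within 3 points above it in 722, and the control mean in 1681 (4.82%) and 542. The rule leaves no such value among the 241 themselves, and what part the number of libraries read at a region has in these values was not tested.

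The single neighbour low in both lay 53 bases from a region in the noncoding gene LOC105371031 (chr15:89416844-89416888), which had 88.2% in knockout cells and 95.7% in control cells. That neighbour had 10.6% in knockout cells and 8.89% in control cells. Among regions paired with their nearest neighbour within 500 bases, it was the only pair that joined the high and the low class.

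In 17 cases the neighbour began or ended at the adjoining base. Of these, 8 were high in both and 9 were neither; the 9 neighbours had medians of 32.5% in knockout cells and 43.3% in control cells, next to regions with medians of 97.3% in knockout cells and 84.0% in control cells. At ARHGEF10L, a guanine nucleotide exchange factor gene, the region chr1:17539369-17539389 had 8 sites at 96.7% in knockout cells and 81.7% in control cells. The abutting region had 14 sites at 8.99% in knockout cells and 25.7% in control cells. Beside the LY86 region lay one of 7 sites at 0% in knockout cells and 33.3% in control cells, and beside a region of NPFFR1, a neuropeptide receptor gene, with 98.0% in knockout cells and 92.2% in control cells, lay one of 5 sites at 0% in knockout cells and 33.3% in control cells. These genes, and those of the next paragraph, were chosen after their values were seen.

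Of the 68 neighbours, 7 (10.3%) had a q under 0.01 and a difference of at least 25 points in the authors' deposited table, against 6.74% of the whole table; 5 were higher and 2 lower in knockout cells. In HOTAIR, a noncoding RNA gene of the HOXC cluster, the region chr12:53966105-53966122 had 97.2% in knockout cells and 97.0% in control cells, and 29 bases away the neighbour had 83.4% in knockout cells and 17.7% in control cells. At LBX1 the neighbour 5 bases away had 77.6% in knockout cells and 34.9% in control cells. At NKX2-8 the neighbour 10 bases away had 3.61% in knockout cells and 52.2% in control cells. At VENTX, a homeobox gene expressed in blood cells, the region had 84.3% in knockout cells and 98.3% in control cells, and its neighbour had 55.3% in knockout cells and 81.4% in control cells. For the VENTX region the authors' deposited table gave a difference of -19.7 points, against -14.0 from its 2 means. At each of these genes the genotypes were further apart a few bases from the highly methylated region than in it, as the choice of both regions requires or favours.

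**Figure D5:**
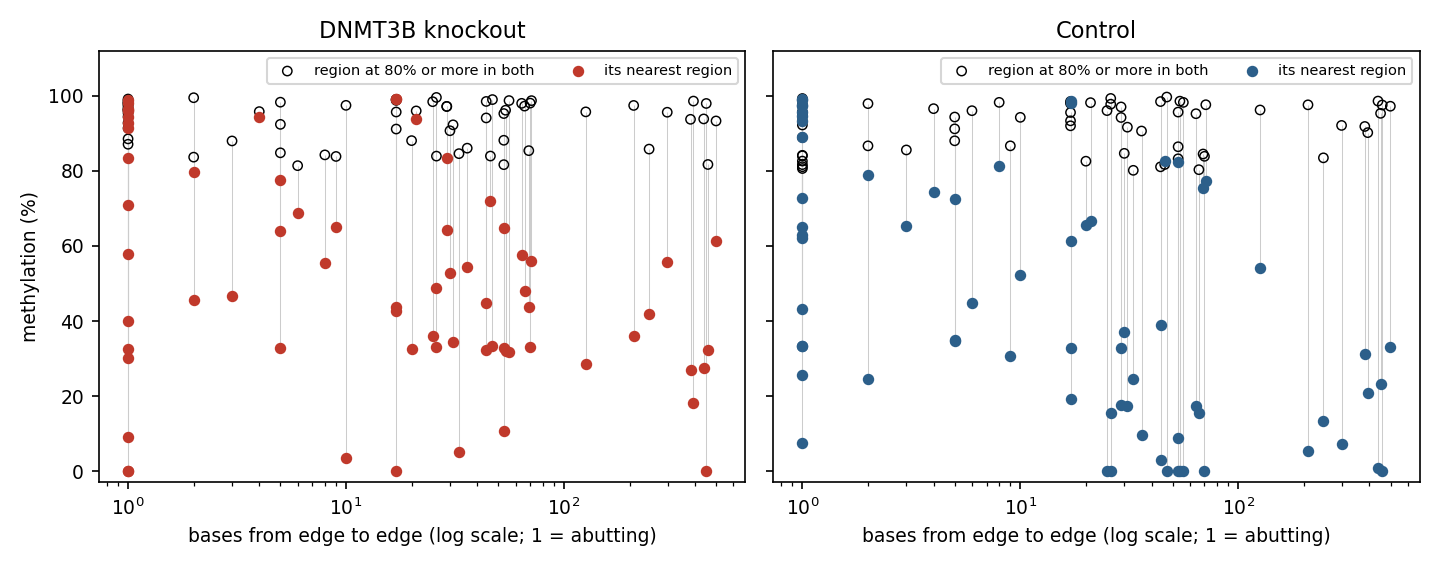
Methylation (y axis, %) of the 68 regions at 80% or more in both that have another region within 500 bases (open circles) and of that nearest region (filled circles), joined by a line, against the distance between them (x axis, bases, log scale, 1 for abutting regions), in DNMT3B knockout cells (left) and control cells (right). Most filled circles lie well below the open ones, at a median of 42.6% in knockout cells and 32.9% in control cells for the 57 neighbours that were neither high nor low in both.

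The regions were spread over all autosomes and the X chromosome. Their share of the measured regions was highest on chromosomes 22 (13 of 1072, 1.21%) and 6 (17 of 1428, 1.19%) and lowest on chromosomes 18 (2 of 680, 0.294%) and 4 (4 of 1342, 0.298%). On the X chromosome it was 0.725% (8 of 1103), with medians of 97.1% in knockout cells and 95.6% in control cells. The most regions, 20, lay on chromosome 17. Within 2 megabases of a chromosome end lay 49 regions (20.3%), against 16.5% of the other regions and 11.4% of those low in both.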

How the data were processed

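The authors' deposited table, from 3 DNMT3B knockout and 3 control RRBS libraries, is the only file. Tools listed in the submitters' processing notes are Bismark, HISAT2, methylKit, Trimmomatic and FastQC, with the build hg38, but neither roles nor versions. Which program made the regions was not given in the sources used here. Per the file headers, the authors deposited for each region the count of CpG sites, each group's mean methylation in percent, another column with the mean difference, and p-values (Mann-Whitney and 2-dimensional Kolmogorov-Smirnov tests) with a q-value, whose adjustment is not stated and which do not measure the spread between libraries. Values of single libraries and read numbers were not used here, which leaves the depth unknown.

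Regions were chosen, counted and summarised with Python 3.11.15, pandas 2.3.3 and numpy 2.4.6, with code tested on simulated regions. The difference used is the knockout mean minus the control mean. The deposited difference departed from it by more than 0.01 points in 274 regions, 2 of them among the 241. Coordinates are 1-based on hg38. Among 2551 regions inside reference promoter windows, adding 2 to the deposited start and 1 to the deposited end put the first and the last base of all 2551 on a CpG, against 50.9% of first bases when 1 less was added. The deposited count of sites never exceeded the CpG cytosines of both strands there, and exceeded the CpG pairs in 1930.

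Genes and promoter windows are from RefSeq (GRCh38.p14). Of 59679 genes, 27303 had a strand and a start, 79.1% of the protein-coding ones. Chromosome ends were taken as the last annotated gene. Regions are not replicates, so no test was made over them. Protein-coding genes were named by rule: the 10 regions with the most sites, the genes with the most regions, up to 3 per list, the 5 largest differences each way, the 3 regions on either side of the threshold, promoter overlaps, low neighbours, 8 genes with a low start and the 5 lowest q. Results for some genes that this rule names are not reported here. Others are said to be chosen after their values were seen or are noncoding genes. The regions and lists were chosen with earlier results of these data known. Alternatives changed the threshold, the minimum of sites, the width and kind of gene start, the chromosome end and the merging of neighbours.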

Additional observations from a re-analysis of the deposited data

How the results depend on the processing

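The median difference stayed above 0 under each of the 6 alternatives that could change it. These alternatives choose regions by the same means that make the difference, so nothing is read from its sign. With a minimum of 10 sites the order of the median levels turned, with the control median the higher, and so did the order of gene starts and interiors; with genes of known strand only, the intergenic share passed the interior share. Of 94 alternative values, 59 stayed within the 95% interval of the value reported, which covers counting over regions only, or for counts within 1.5 times of it. The interval treats regions as independent, which they need not be, and many alternatives keep most of the same regions. Staying within it is therefore no sign of stability. A threshold of 70% gave 504 regions, medians of 93.9% in knockout and 83.0% in control cells, a median difference of 5.03 points, 68.5% higher in knockout cells and 523 genes. A threshold of 90% gave 116 regions, medians of 97.3% in knockout and 96.1% in control cells, a median difference of 1.20 points, 120 genes and 0% of neighbours low in both. A minimum of 10 sites left 8 regions, with medians of 84.3% in knockout and 87.3% in control cells, a median difference of 0.566 points, 50% higher in knockout cells, 100% at gene starts, 0% in gene interiors, 0% between genes, 29.9 sites per 100 bases, 12.5% near a chromosome end, 8 genes, and 0% of neighbours high and 0% low in both. Merging left 0% of neighbours high in both. The share at gene starts was 18.3% with a width of 500 bases, 34.0% with 2000 (45.2% in interiors), and 15.8% with protein-coding genes only (37.8% between genes). With genes of known strand only, an alternative chosen after seeing the data, it was 17.4%, with 39.8% in interiors and 42.7% between genes. Within 5 megabases of an end lay 30.7% of the regions and 29.3% of the other regions, closer than the shares at 2 megabases. The changed thresholds and class definitions set these shifts by construction.

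No paired analysis was possible because the table holds 1 mean per genotype; leaving out single libraries was not run for the same reason. Depth, the spread between libraries and copies of a sequence elsewhere in the genome limit every level given, and the threshold cuts a continuous range.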
